A study of Homo sapiens with 4 samples.

Results

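The genes described here are 10 targets of ERK signalling, most of which act back on the pathway that induces them: the dual-specificity phosphatases DUSP4, DUSP5 and DUSP6, the Sprouty proteins SPRY1, SPRY2 and SPRY4, the Sprouty-related proteins SPRED1 and SPRED2, and the ERK-induced genes PHLDA1 and UPP1. They were read by 28 probe sets, of 49395 on the array, chosen as those whose annotation names exactly 1 of these genes, and they are 10 of 18132 genes measured. Per the labels, each of 4 arrays held total RNA of MDA-MB-231, a triple-negative human breast cancer line established from a pleural effusion. ELK3 KD cells carried a stably integrated retroviral shRNA against the ETS factor ELK3 (2 arrays), and control cells carried a control shRNA (2 arrays). Per the study's methods the parental line also carried GFP and luciferase, several KD and control lines were made, and per the labels the stable cells were selected with puromycin for ELK3 suppression. The labels call the 2 arrays of each group biological repeats (replicates 1 and 2 here) without saying whether they were separate lines or cultures of 1 line, so the p-values cover the spread among the 4 arrays, which may be technical.

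In the RAS-ERK pathway, growth factor receptors activate RAS, which passes the signal through RAF and MEK to the kinases ERK1 and ERK2. Active ERK induces transcription of its own inhibitors: dual-specificity phosphatases remove the activating phosphates from ERK, while Sprouty and SPRED proteins act further upstream, at or above RAF. MDA-MB-231 cells are known for strong RAS-ERK activity, and transcripts of such feedback genes are often read as a measure of pathway output. ELK3 is itself a substrate of ERK, a ternary complex factor that binds ETS motifs beside serum response factor.

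All values below are log2 intensities, made by the authors with RMA, which corrects background, evens out the arrays and combines the probes of a set. On this scale a difference of 1 is a change of 2-fold, and levels of different probe sets are not comparable with each other. The brightest probe set over the 4 arrays stood for a gene, and limma compared the groups, with p-values adjusted by Benjamini-Hochberg over 18132 genes and a threshold of 0.05. ELK3 read 8.34 and 8.33 in ELK3 KD arrays and 10.85 and 10.82 in control arrays, a difference of -2.50 log2 units (SE 0.07, limma adjusted p = 3.57e-05). No detection call came with the values, so 359 probe sets of olfactory receptor genes, which such cells are not known to transcribe, served as a guide to background, and their 95th percentile was 5.71. The groups differed widely: 49.5% of genes tested passed limma, with 23.5% lower and 26% higher in ELK3 KD cells. All 5 of a list of genes known to be high in MDA-MB-231 cells were lower in ELK3 KD arrays, among them AXL at 4.38 and 4.08 against 11.98 and 11.95 in control arrays. Of 5 genes known to be low in these cells, GATA3 was higher by 1.04, ERBB2 changed by -0.38 and 3 did not pass. The calls of GATA3 and ERBB2 ended under a t-test with Benjamini-Hochberg adjustment (adjusted p = 0.0519 and 0.101). The study's methods name Student's t-test in general, without tying it to the arrays. GATA3 was higher by 1.67 with all its probe sets averaged, and by 2.23 without probe sets named _x_, _s_ or _a_. CDKN2A, in the 9p21 region, whose deletion is a known feature of MDA-MB-231, read 11.33 and 11.43 in ELK3 KD arrays against 5.10 and 4.61 in control arrays, and CDKN2B read 6.81 and 7.13 in ELK3 KD arrays against 2.86 and 3.19 in control arrays. MTAP, of the same region, read 6.25 and 6.48 in ELK3 KD arrays and 6.78 and 6.84 in control arrays at its brightest probe set, whereas the mean of its probe sets was higher in ELK3 KD arrays by 2.99. For CDKN2A the difference was 6.53 at the brightest probe set and 4.22 over the mean of its probe sets. Of 10 marker genes of HEK293, the human kidney line from which retroviral packaging cells are derived, 6 rose and 1 fell in ELK3 KD arrays, with a summed linear intensity of 7786 and 7448 against 1189 and 1110 in control arrays. SOX11 and NEFL were among the 6, at means of 9.51 and 10.95 in ELK3 KD arrays and 3.70 and 3.37 in control arrays, while PAX2 and NEFM stayed below 5.71 in both groups. The part of these differences in the results below was not tested, and an effect of ELK3 loss and a difference between the selected cells cannot be told apart from these arrays.

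Of the 10 feedback genes, 9 fell and 1 rose in ELK3 KD cells, all past an adjusted p of 0.05 from limma, against 23.5% of all genes lower, 26% higher and 49.5% in either direction. The median log2 fold change was -2.05 over the 10 genes and -0.05 over all genes. PHLDA1, DUSP6, DUSP5, SPRY4 and DUSP4 fell by more than 4-fold, 5 of 10 genes against 2.32% of all genes, and none rose that far, against 3.19% (5.51% in either direction). For each of the 10 genes both ELK3 KD arrays lay on the same side of both control arrays, which held for 76.2% of all genes (40.8% lower, 35.4% higher). Counted as probe sets, 24 of 28 fell, 3 rose and 1 did not pass, against 24.3%, 24.6% and, in either direction, 48.9% of 44988 probe sets. The groups did not overlap in 25 lower and 3 higher of the 28, against 41.2%, 34.7% and, together, 75.8% of all probe sets. Past 4-fold there were 13 lower and 0 higher, against 2.27%, 2.74% and, together, 5.01%. The widest gap between arrays of a group at any of the brightest probe sets was 0.30 in ELK3 KD arrays, at DUSP6, and 0.47 in control arrays, at UPP1. In bulk RNA, fewer cells with a transcript and less of it per cell cannot be told apart.

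**Figure D1:**
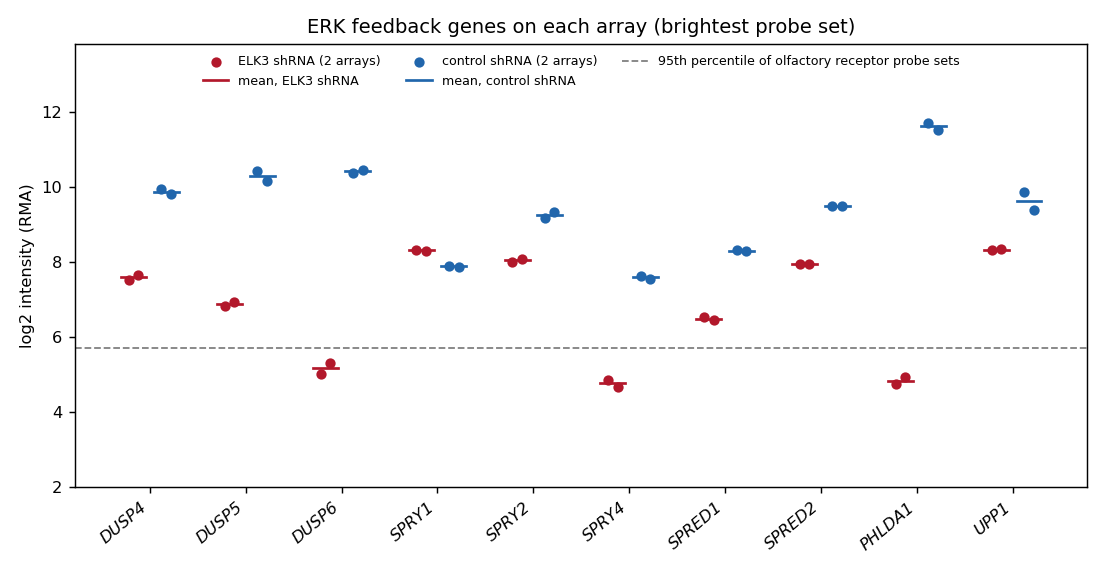
Log2 intensity (y axis) of the brightest probe set of each of the 10 genes (x axis), with a point per array, a bar for each group mean (ELK3 shRNA left, control shRNA right) and a dashed line at 5.71, the olfactory receptor 95th percentile. SPRY1 alone of the 10 has its ELK3 KD arrays above its control arrays, and the ELK3 KD means of DUSP6, SPRY4 and PHLDA1 lie under the dashed line.

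The upstream sequences of 4 of the genes are shown because ELK3 binds ETS motifs: the pair with the largest falls, and SPRY2 and SPRY1, Sprouty genes that changed in opposite directions. The sequences are from RefSeq (GRCh38.p14) and give the 250 bases before an annotated start, 5′ to 3′ on the strand of the gene. They are in lower case with the ETS motif form CCGGAA, or its reverse complement TTCCGG, in capitals. Matches of the shorter GGAA alone are not marked and were not counted. PHLDA1 lies on the minus strand at chr12:76031777-76032026, DUSP6 on the minus strand at chr12:89352502-89352751, SPRY2 on the minus strand at chr13:80341127-80341376 and SPRY1 on the plus strand at chr4:123398136-123398385. SPRY2 has 3 annotated windows and SPRY1 has 2, and for each the 1 with the most CCGGAA matches is shown.
PHLDA1: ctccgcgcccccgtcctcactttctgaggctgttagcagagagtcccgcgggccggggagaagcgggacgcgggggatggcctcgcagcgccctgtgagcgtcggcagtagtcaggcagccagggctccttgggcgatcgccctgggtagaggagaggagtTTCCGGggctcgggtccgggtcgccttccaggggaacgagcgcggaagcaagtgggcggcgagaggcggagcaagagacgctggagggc
DUSP6: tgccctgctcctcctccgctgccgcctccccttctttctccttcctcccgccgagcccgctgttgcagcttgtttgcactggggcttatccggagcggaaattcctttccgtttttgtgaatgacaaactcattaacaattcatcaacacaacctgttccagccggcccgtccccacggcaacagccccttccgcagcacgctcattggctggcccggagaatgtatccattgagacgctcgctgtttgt
SPRY2: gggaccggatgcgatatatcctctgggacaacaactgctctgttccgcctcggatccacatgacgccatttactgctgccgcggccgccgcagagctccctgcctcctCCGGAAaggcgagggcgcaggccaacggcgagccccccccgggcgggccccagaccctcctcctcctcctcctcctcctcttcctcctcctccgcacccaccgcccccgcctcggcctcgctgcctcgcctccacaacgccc
SPRY1: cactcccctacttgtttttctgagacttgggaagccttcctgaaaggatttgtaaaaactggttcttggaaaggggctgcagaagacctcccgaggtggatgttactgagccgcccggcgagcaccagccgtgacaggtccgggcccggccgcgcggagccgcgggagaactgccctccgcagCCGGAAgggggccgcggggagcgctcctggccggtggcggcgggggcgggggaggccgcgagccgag
PHLDA1, SPRY2 and SPRY1 each held 1 CCGGAA match, before genes that fell and before the gene that rose. DUSP6 held none, although the shorter GGAA is in its sequence. The SPRY2 and SPRY1 windows were chosen for their matches, and the other windows of these genes held none. RefSeq windows of 300 bases, from 250 before to 50 after a start, were matched for 8 of the 10 genes, 14 windows in all. On both strands CCGGAA was in 3 of the 14 windows (21.4%) and in 17.2% of 35116 windows of all genes. The AP-1 motif TGANTCA was in 2 of the 14 (14.3%), a window of SPRED2 and one of UPP1, against 7.71% of all windows. The cyclic AMP response element TGACGTCA was in 0 of 14 windows (1.85% of all) and the CArG box bound by serum response factor in 0 of 14 (1.29% of all). These are matches of letters within the windows and say nothing of binding.

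All 3 phosphatases fell. DUSP6, also called MKP-3, is a cytoplasmic phosphatase that is selective for ERK. Its brightest probe set read 5.01 and 5.31 in ELK3 KD arrays against 10.37 and 10.44 in control arrays. The gap between groups was many times the gap within either of them, and the difference was -5.25 log2 units (SE 0.12, limma adjusted p = 2.36e-05). All 4 probe sets of DUSP6 fell, by log2 fold changes of -5.25 to -6.04. Their ELK3 KD means, 4.58 to 5.16, lay within the olfactory receptor range, so background limits the size of the fall and it may be understated. Of 18132 genes, 30 had a larger drop than DUSP6.

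DUSP5 is a nuclear phosphatase that binds and inactivates ERK. It read 6.83 and 6.93 in ELK3 KD arrays against 10.43 and 10.16 in control arrays. Both groups were above the olfactory receptor range, with a 10.7-fold lower level in ELK3 KD cells, a difference of -3.41 log2 units (SE 0.12, limma adjusted p = 5.50e-05). DUSP4, or MKP-2, is another nuclear phosphatase of this family, acting on ERK and other MAP kinases. Its only probe set read 7.53 and 7.64 in ELK3 KD arrays and 9.93 and 9.80 in control arrays, again without overlap and above the olfactory receptor range. The difference for DUSP4 was -2.28 log2 units (SE 0.09, limma adjusted p = 7.50e-05), which left 20.6% of the control level.

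Of the Sprouty genes SPRY4 and SPRY2 fell and SPRY1 rose. SPRY4, an inhibitor of RAS activation downstream of growth factor receptors, read 4.84 and 4.68 in ELK3 KD arrays against 7.63 and 7.55 in control arrays at its brightest probe set. Its difference there was -2.83 log2 units (SE 0.09, limma adjusted p = 4.95e-05), with the ELK3 KD mean within the olfactory receptor range. A dimmer SPRY4 probe set gave -0.99 (adjusted p = 0.00163 from the limma fit of probe sets). The dimmest gave -0.26, from means of 3.08 in ELK3 KD and 3.34 in control arrays, and did not pass (adjusted p = 0.233). Both groups lay within the olfactory receptor range at the dimmer 2, and with all 3 averaged the log2 fold change of SPRY4 was -1.36. SPRY2, which binds the adaptor GRB2 and the ubiquitin ligase CBL, read 8.01 and 8.08 in ELK3 KD arrays against 9.16 and 9.34 in control arrays, a difference of -1.21 log2 units (SE 0.09, limma adjusted p = 0.000511).

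SPRY1, a further Sprouty protein that restrains receptor tyrosine kinase signalling, moved the other way. At its brightest probe set it read 8.33 and 8.29 in ELK3 KD arrays and 7.90 and 7.87 in control arrays. The arrays within each group lay close together, and the rise was small, 1.34-fold, or 0.42 on the log2 scale (95% interval 0.24 to 0.61, adjusted p = 0.00691 from limma), and 21.9% of all genes had a larger rise. The call ended without ELK3 KD replicate 1 (adjusted p = 0.0687) and without ELK3 KD replicate 2 (adjusted p = 0.0554). The other 2 SPRY1 probe sets held identical values on all 4 arrays, so they are 1 measurement, and gave 0.65 (adjusted p = 0.00208 from the limma fit of probe sets). At no probe set did SPRY1 lie within the olfactory receptor range.

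SPRED1 and SPRED2 are membrane-bound relatives of the Sprouty proteins that recruit neurofibromin, the RAS inactivator encoded by NF1. SPRED1 read 6.53 and 6.45 in ELK3 KD arrays against 8.31 and 8.28 in control arrays, a difference of -1.81 log2 units (SE 0.08, limma adjusted p = 8.99e-05). All 5 probe sets of SPRED1 fell, by -1.40 to -2.39, and in 3 of them the ELK3 KD mean was within the olfactory receptor range. SPRED2 read 7.94 and 7.95 in ELK3 KD arrays against 9.50 and 9.50 in control arrays, a difference of -1.55 log2 units (SE 0.07, limma adjusted p = 0.000112). Its other 2 probe sets, dimmer and with ELK3 KD means within the olfactory receptor range, gave -1.16 and -1.03 and passed as well. SPRED1 and SPRED2 thus fell to 28.5% and 34.1% of their control levels at the brightest probe sets.

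PHLDA1 encodes a pleckstrin homology-like protein that is induced by ERK and has been linked to restraint of receptor tyrosine kinases. It read 4.74 and 4.93 in ELK3 KD arrays against 11.71 and 11.50 in control arrays, so a transcript that was bright in control cells read within the olfactory receptor range in ELK3 KD cells. The difference was -6.77 log2 units (SE 0.11, limma adjusted p = 1.76e-05), and 5 of 18132 genes had a larger drop. All 4 PHLDA1 probe sets fell, by -4.74 to -6.82, each with its ELK3 KD mean within that range, so the size is limited by background. UPP1 encodes uridine phosphorylase, which splits uridine into uracil and ribose phosphate. It read 8.30 and 8.33 in ELK3 KD arrays against 9.85 and 9.38 in control arrays, the widest gap between control arrays among the 10 genes. Its difference was -1.30 log2 units (SE 0.17, limma adjusted p = 0.00252), a call that ended under the t-test of the study's methods (Benjamini-Hochberg adjusted p = 0.0822). The other 2 probe sets of UPP1 gave -1.40 and, at means of 3.62 in ELK3 KD and 4.20 in control arrays, -0.57.

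**Figure D2:**
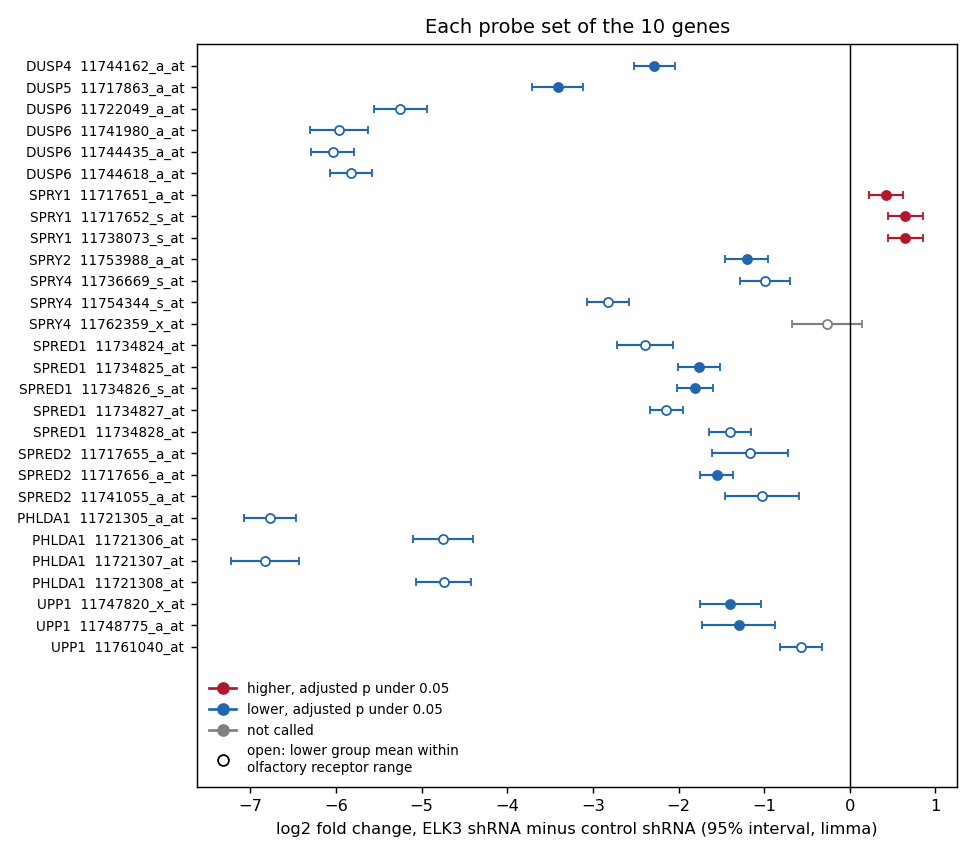
Log2 fold change of each of the 28 probe sets (x axis, ELK3 shRNA minus control shRNA, with 95% intervals from limma), listed by gene and probe set name (y axis), with open points where the lower group mean is within the olfactory receptor range. All probe sets of DUSP6 and PHLDA1 lie below -4, the 3 of SPRY1 lie above 0, and 1 of SPRY4 has an interval that includes 0.

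Across the 28 probe sets, 11 had both group means above 5.71, the olfactory receptor guide, and of these 8 fell and the 3 of SPRY1 rose. Of all probe sets with at least 1 group mean above the guide, 66.9% were called in either direction, against 48.9% without that filter. In 17 of the 28 the lower mean was below the guide, and in 3 both were. The falls of DUSP4, DUSP5, SPRY2, SPRED1, SPRED2 and UPP1 were thus each read on at least 1 probe set with both groups above that level.

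DUSP4, DUSP5 and DUSP6 belong to a family of 10 MAP kinase phosphatases, of which 5 fell, 2 rose and 3 did not pass. Of all genes, 23.5% were lower and 26% higher by the same test. DUSP9, or MKP-4, is like DUSP6 a cytoplasmic phosphatase that prefers ERK, and it moved the opposite way. DUSP9 read 8.98 and 8.90 in ELK3 KD arrays against 5.28 and 5.37 in control arrays, a difference of 3.61 log2 units (SE 0.08, limma adjusted p = 2.3e-05), with the control mean within the olfactory receptor range. DUSP10, which acts on JNK and p38, read 6.18 and 6.29 in ELK3 KD arrays against 7.84 and 8.21 in control arrays, a log2 fold change of -1.79. DUSP7, another ERK phosphatase, changed by -0.94 (adjusted p = 0.00297 from limma) to an ELK3 KD mean within that range, and the rise of DUSP16, a JNK and p38 phosphatase, was 0.47 (adjusted p = 0.0119), a call that ended without ELK3 KD replicate 1 (adjusted p = 0.0888) or control replicate 1 (adjusted p = 0.06). DUSP1, an immediate early phosphatase, read 10.75 and 10.76 in ELK3 KD arrays against 10.42 and 9.82 in control arrays and did not pass (0.64, limma adjusted p = 0.0545). It passed limma with probe sets averaged (adjusted p = 0.0438) or quantile normalized again (adjusted p = 0.0463). It did not pass with array medians subtracted, the replicate block or the methods' t-test. The log2 fold change of DUSP1 was 0.94 without control replicate 1 and 0.33 without control replicate 2. PTPRR, a receptor-type tyrosine phosphatase, changed by -0.83 with both means within the olfactory receptor range (adjusted p = 0.0224), a call that ended without ELK3 KD replicate 1 (-0.72, adjusted p = 0.142), ELK3 KD replicate 2 (-0.95, adjusted p = 0.0803) or control replicate 1 (-0.56, adjusted p = 0.0551) and with the replicate number as a block (adjusted p = 0.0515). DUSP16 and DUSP1 were named after their values were seen. Together with 3 tyrosine phosphatases that dock on MAP kinases, the list of 10 such phosphatases outside the feedback genes had 3 lower and 2 higher. The other 5 did not pass, the median was -0.11, and 49.5% of all genes were called in either direction. Under the methods' t-test 1 of the list was lower and 1 higher, against 2086 lower and 2574 higher of 18132 genes. The calls of DUSP7 (adjusted p = 0.0783), DUSP16 (adjusted p = 0.0952) and PTPRR (adjusted p = 0.189) ended under that t-test. With all its probe sets averaged, PTPRR changed by -1.84.

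**Figure D3:**
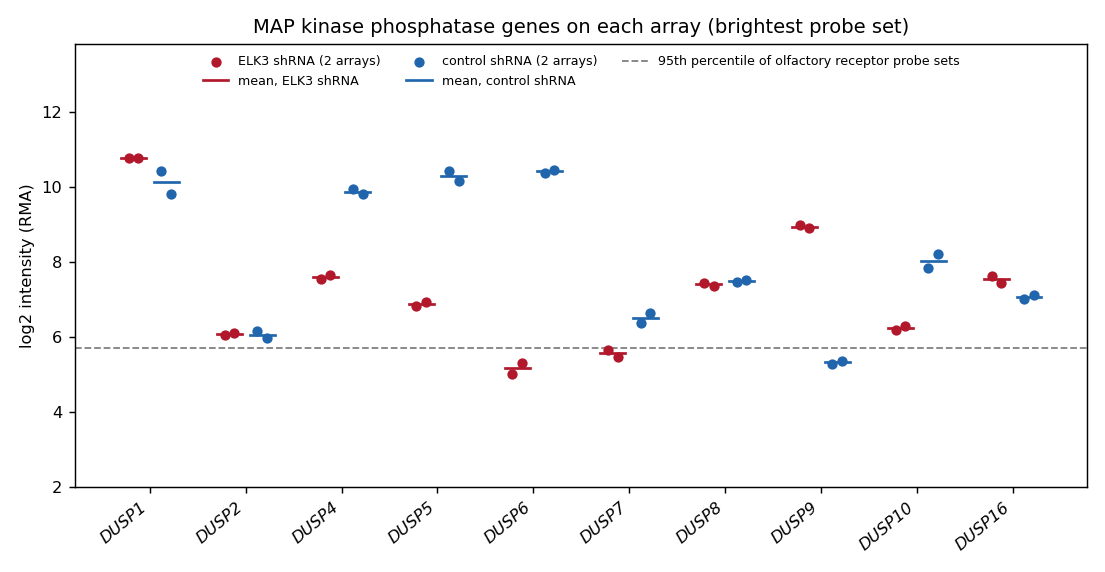
Log2 intensity (y axis) of the brightest probe set of each of the 10 MAP kinase phosphatase genes (x axis), with a point per array, bars for group means (ELK3 shRNA left, control shRNA right) and a dashed line at 5.71, the olfactory receptor 95th percentile. DUSP6 and DUSP9, at 5.16 and 8.94 in ELK3 KD arrays and 10.41 and 5.33 in control arrays, changed in opposite directions.

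Other genes that ERK signalling is known to induce were mostly lower too. Of 13 such genes, 11 fell and 2 rose, against 23.5% of all genes lower and 26% higher. Their median log2 fold change was -1.95, and 6 of them were past 4-fold lower, against 2.32% of all genes. ETV5, an ETS factor of the PEA3 group, read 4.05 and 4.12 in ELK3 KD arrays against 9.40 and 9.28 in control arrays, a log2 fold change of -5.25 (adjusted p = 1.66e-05 from limma). ETV1, of the same group, read 4.63 and 4.90 in ELK3 KD arrays against 8.98 and 9.03 in control arrays, a log2 fold change of -4.24. The change of ETV1 was -1.92 with all its probe sets averaged and -2.77 without those named _x_, _s_ or _a_. IER3, an immediate early survival gene, read 8.10 and 8.10 in ELK3 KD arrays against 12.55 and 12.23 in control arrays, and FOSL1, an AP-1 subunit, read 5.62 and 5.90 in ELK3 KD arrays against 9.32 and 9.41 in control arrays. The ELK3 KD means of ETV5 and ETV1 were within the olfactory receptor range, while that of IER3 was above it. The ELK3 KD mean of FOSL1, 5.76, was just above the guide of 5.71, with ELK3 KD replicate 1 below it. The 2 genes that rose, named after their values were seen, were the ephrin receptor gene EPHA4 (1.55) and EGR1 (0.55, adjusted p = 0.0352 from limma), a zinc finger factor induced through serum response factor. The call of EGR1 ended without ELK3 KD replicate 1 (adjusted p = 0.193), ELK3 KD replicate 2 (adjusted p = 0.0936) or control replicate 2 (adjusted p = 0.102), at a log2 fold change of 0.36 without the last. Under the methods' t-test 9 of the 13 genes fell and 1 rose, and EGR1 did not pass (adjusted p = 0.21). By that t-test 2086 of 18132 genes were lower and 2574 higher.

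Genes of the cascade itself and other inhibitors of the pathway moved in both directions. Of 15 measured components of the ERK cascade, 8 fell, 4 rose and 3 did not pass, against 23.5% of all genes lower and 26% higher. Their log2 fold changes were -1.37 to 1.07, with a median of -0.34. SHC1, an adaptor of growth factor receptors, read 9.48 and 9.52 in ELK3 KD arrays against 10.95 and 10.78 in control arrays, and MAPK3, which encodes ERK1, read 8.56 and 8.51 in ELK3 KD arrays against 7.63 and 7.31 in control arrays. MAP2K1, encoding MEK1, changed by -0.77, and SOS2, a RAS activator, by -0.83. Fewer cascade genes were called higher with any 1 array left out, as held for all genes. Under the methods' t-test 5 of the cascade genes fell and 0 rose, against 2086 lower and 2574 higher of 18132 genes. The calls of SOS2 (adjusted p = 0.085) and MAPK3 (adjusted p = 0.0665) ended under that t-test. Among 12 other negative regulators, 6 fell, 2 rose and 4 did not pass (median -0.32). Fewer were called in each direction without either ELK3 KD replicate in turn, as held for all genes. Under the methods' t-test 1 rose and 0 fell, where 25.7% of all genes were called in either direction. ERRFI1, a feedback inhibitor of the EGF receptor, read 9.25 and 9.28 in ELK3 KD arrays against 11.17 and 10.75 in control arrays, a log2 fold change of -1.69 (adjusted p = 0.000779 from limma). The RAS GTPase-activating genes RASAL2 and RASA2 changed by -1.16 and -0.62. That t-test ended the calls of ERRFI1 (adjusted p = 0.0538), RASAL2 (adjusted p = 0.0655) and RASA2 (adjusted p = 0.0704). RASAL2 changed by -0.63 with its probe sets averaged, and RASA2 by -1.10 without probe sets named _x_, _s_ or _a_. NF1, partner of the SPRED proteins, was higher by 1.19 at its brightest probe set (limma adjusted p = 0.000739). With probe sets named _x_, _s_ or _a_ left out, its difference was -0.041 and did not pass (limma adjusted p = 0.813). With all its probe sets averaged the difference was 0.30.

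Around UPP1, 11 genes of uridine salvage and pyrimidine breakdown were divided into 3 that fell, 1 that rose and 7 that did not pass. Their median was -0.03, and of all genes 23.5% were lower and 26% higher. DPYD, the first enzyme of uracil breakdown, read 3.91 and 4.03 in ELK3 KD arrays against 8.34 and 8.53 in control arrays, a log2 fold change of -4.46 to a level within the olfactory receptor range, or -2.85 with its probe sets averaged. The uridine kinase gene UCK1 changed by 0.96, a call that ended without ELK3 KD replicate 2 (adjusted p = 0.0533) and under the methods' t-test (adjusted p = 0.103), its relative UCKL1 by -0.68 and the thymidine kinase gene TK1 by -0.35, a call that ended without ELK3 KD replicate 1 (adjusted p = 0.0979) or 2 (adjusted p = 0.0862). Of the relatives of PHLDA1, PHLDA2, an imprinted growth regulator, read 7.06 and 7.06 in ELK3 KD arrays against 9.25 and 9.24 in control arrays, a log2 fold change of -2.19. PHLDA3, a p53 target that restrains AKT, changed by 0.39 (adjusted p = 0.0485 from limma), a call that ended without ELK3 KD replicate 1 (adjusted p = 0.158), ELK3 KD replicate 2 (adjusted p = 0.218) or control replicate 2 (adjusted p = 0.0924) and under renormalization (adjusted p = 0.0606 with array medians subtracted), the replicate block (adjusted p = 0.0806) and the methods' t-test (adjusted p = 0.215).

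**Figure D4:**
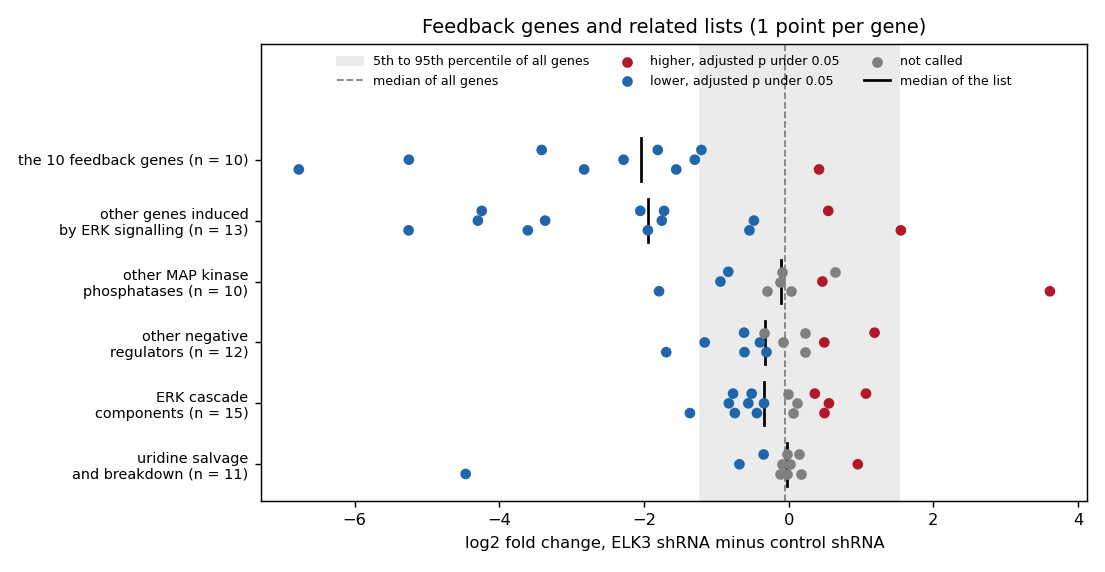
Log2 fold change (x axis, ELK3 shRNA minus control shRNA) of each gene in the 10 feedback genes and 5 related lists (y axis), with black bars for list medians, a dashed line at the median of all genes (-0.05) and a grey band from their 5th (-1.22) to 95th (1.53) percentile. The medians of the feedback genes (-2.05) and of the other ERK-induced genes (-1.95) lie left of the band, and the medians of the other 4 lists lie inside it.

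The genes nearest to PHLDA1 over the 4 arrays, by the distance between log2 values centred on each gene's mean, were ANKRD1 (distance 0.14), IGFBP1 (0.28) and IFI16 (0.31). ANKRD1, a muscle ankyrin repeat gene, read 2.88 and 3.18 in ELK3 KD arrays against 10.05 and 9.73 in control arrays. Nearest to SPRY1 were DIP2B (distance 0.02), ADH5 (0.02) and TNFRSF25 (0.02), with log2 fold changes of 0.41, 0.43 and 0.40. With 4 arrays in 2 groups this likeness is mostly that of the group difference.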

How the data were processed

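Total RNA of 2 ELK3 shRNA and 2 control shRNA samples, labelled as MDA-MB-231, was hybridised to 1 array each. For 49395 probe sets the authors deposited values on the log2 scale. The submitters' processing notes name RMA and Affymetrix Expression Console, whose version is not given in the sources used here. The study's methods name an Illumina BeadChip instead, whereas the probe set names are Affymetrix ones. RMA compresses low values, and its between-array normalization hides changes in total RNA. 

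Gene names came from the annotation of the array (44988 probe sets had a single gene, 1832 several and 2473 none, and 102 were controls), and 44961 were brought up to date by their gene identifier through RefSeq (GRCh38.p14). None of those naming several genes named a member. Genes were read from the brightest of their probe sets with no filter on dim ones, and fitted by lmFit and eBayes of limma 3.58.1 under R 4.3.3, without a block. P-values were adjusted by Benjamini-Hochberg over 18132 genes or, for probe sets, over 44988. The fit was tested on simulated data with independent arrays, which says nothing of whether the arrays here are independent. With 2 arrays a group, no exact permutation test, two-sided, can go below p = 0.33, and the number of arrays limits the precision. Figures were drawn with matplotlib 3.10.9.

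The members, lists and olfactory receptor guide were chosen with earlier results of these data known. Named were the 10 genes, ELK3, from each list the up to 4 called genes that changed most (or the 2 brightest, if under 2 were called), the 3 genes nearest to the member with the largest fall and to that with the largest rise, and the 9p21 genes CDKN2A, CDKN2B and MTAP. Genes of a list that lacked a probe set of their own are not analysed here. Alternatives were other summaries, filters, normalizations, variance priors and tests, a replicate block, and each array left out in turn. The methods' t-test is the Student's t-test named there for the study's data, applied here to the arrays with Benjamini-Hochberg adjustment.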

Additional observations from a re-analysis of the deposited data

How the results depend on the processing

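Over 132 values of the 10 genes under other settings, 129 kept their direction and their side of the threshold, 3 kept the direction but lost the call (SPRY1 without either ELK3 KD replicate and UPP1 with the methods' t-test), and 0 reversed. With 1 array left out, 0 to 1 member genes were called higher and 9 to 9 lower, and 2 to 3 member probe sets were called higher and 22 to 24 lower. Without probe sets whose names carry _x_, _s_ or _a_, 3 of the 10 genes (8 probe sets) could still be read, and 3 genes (8 probe sets) were called lower and 0 genes (0 probe sets) higher. Of all genes read in that setting 35.9% were called in either direction, and of all probe sets 36.5%. That setting reversed the related gene NF1 (-0.041), and averaging all probe sets of a gene reversed MTAP (2.99). Averaging also moved SPRY4 to -1.36 and, outside the 10 genes, ETV1 to -1.92, DPYD to -2.85, RASAL2 to -0.63, PTPRR to -1.84, GATA3 to 1.67 and CDKN2A to 4.22. The methods' t-test called 0 of 12 other negative regulators and 5 of 15 cascade genes lower, against 6 and 8 with limma. The share of all genes called fell to 25.7% with the methods' t-test and to 30.4% without ELK3 KD replicate 1.

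The replicate numbers did not pair the arrays: over 18132 genes the difference of replicates 1 and 2 in ELK3 KD arrays correlated with that in control arrays at r = 0.01. With the replicate number as a block, 9 member genes were called lower and 1 higher, and 24 member probe sets lower and 3 higher, the same counts as without it, while 44.8% of all genes were called. Counting identical probe sets once, chosen after seeing the data, left 24 lower and 2 higher. Leaving out features with neither group mean above the olfactory receptor guide, also chosen afterwards, left 22 probe sets lower and 3 higher of 25. Under that filter 66.9% of all probe sets were called in either direction. Signal over background limits the sizes given for DUSP6, SPRY4 and PHLDA1.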
